A study of Rattus norvegicus with 6 samples.

Results

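The genes described here encode structural matrix of the vessel wall: the fibrillar collagen chains Col1a1, Col1a2 and Col3a1, the small leucine-rich proteoglycans decorin (Dcn), biglycan (Bgn) and lumican (Lum), fibronectin (Fn1), the collagen-binding glycoprotein Sparc and the collagen chaperone Serpinh1. They were chosen by name, and every probe set that the array annotation assigned to 1 of these symbols alone was taken, which gave 24 of the 8799 probe sets and 9 of the 4737 named genes. Dcn, Sparc and Col1a1 had 4 probe sets each, Fn1 had 5, Bgn and Col3a1 had 2, and Lum, Col1a2 and Serpinh1 had 1. RNA came from brain capillaries of stroke-prone spontaneously hypertensive rats (SHRSP), a strain with inherited high blood pressure, at 6 weeks of age, and was measured on 6 Affymetrix RG_U34A arrays. The control group, the group given the ACE inhibitor lisinopril at 6 mg/kg per day (ACEI) and the group given the angiotensin receptor blocker olmesartan at 4 mg/kg per day by mouth (ARB) had 2 arrays each. The labels also name 1% NaCl without saying which groups received it, and they do not state how many animals an array stands for.

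Fibrillar collagens are assembled from chains that fold in the endoplasmic reticulum, where Serpinh1 (HSP47) binds the newly formed triple helix, and are secreted and joined into fibrils outside the cell. Decorin, biglycan and lumican bind collagen fibrils and limit or space their growth, fibronectin links matrix to integrins, and Sparc binds collagen and modulates cell contact with it. In brain vessels fibrillar collagen and decorin are made mainly by fibroblasts around larger vessels and in the meninges, whereas Sparc is abundant in endothelial cells and glia. The design asks how blocking angiotensin II, which in many tissues favours matrix deposition, bears on capillary gene expression.

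The arrays differed in run day and in RNA quality. Control 1 and ACEI 1 were run on the first day and the other 4 arrays on the later day, with another chip lot. Both ARB arrays thus shared run day and chip lot. Replicate 1 and replicate 2 of each group differed in fluidics protocol. For Gapdh the 3' probe set exceeded the 5' one by a factor of 7.31 on control 2, against 0.93 to 1.59 on the other 5 arrays, and for beta-actin by 3.15, against 1.04 to 2.05; such a factor is high in degraded RNA. The probe sets for foreign transcripts, a measure of background, had a median intensity of 91.4 and 80.9 on the ARB arrays and of 18.4 to 28.8 on the other 4 arrays. Their part in the results below was not tested. Nothing in the labels says that the arrays of a group came from different animals, so p-values measure the spread between arrays, which may be technical.

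No matrix probe set passed the adjustment for multiple testing. Of the 24 probe sets, 21 lay above the filter on low values and were tested; 1 of Dcn and 2 of Fn1 lay below it. Comparisons were made in limma on log2(intensity + 90) among 5244 probe sets. For RAS blockade versus control, where RAS blockade is the mean of both drug groups, 0 of 5244 probe sets (0%) had an adjusted p under 0.05, and 2 of the 21, both lower, had an unadjusted p under 0.05, as 2.02% of all tested probe sets did in that direction and 3.05% in the other. For ACEI versus control 0 of the 21 had an unadjusted p under 0.05, against 1.2% of all tested probe sets higher and 1.39% lower. For ARB versus control 3 of the 21 were lower at that level and 0 higher, where the whole table gave 4.69% lower and 12.6% higher. For ARB versus ACEI 2 were lower and 2 higher, where the whole table gave 6.71% and 15.6%. Groups whose arrays did not overlap were counted as well. All treated arrays lay below both controls for 3 of the 21, beside 3.72% of the table, and above both for 0, beside 4.63%. For ACEI versus control 2 were higher (11.6% of the table) and 6 lower (11.9%), for ARB versus control 2 were higher (33.4%) and 7 lower (16.8%), and for ARB versus ACEI 9 were higher (37.1%) and 9 lower (25.3%).

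The median log2 difference over all 24 probe sets was -0.24 for RAS blockade, -0.26 for ACEI and -0.28 for ARB versus control, beside medians over all tested probe sets of 0.13, -0.04 and 0.18. For ARB versus ACEI it was -0.14, beside 0.15. Control arrays are shared between these comparisons. After quantile normalization the median of all tested probe sets became -0.03, -0.07, -0.07 and -0.04 in these comparisons, and that of the 24 was -0.31, -0.20, -0.20 and -0.19. The direction was not kept under every setting: with run day as a block the median of the 24 was 0.23 for ARB versus ACEI and 0.02 for ARB versus control, without control 1 it was 0.13 for RAS blockade and 0.01 for ARB versus control, and without ACEI 2 it was 0.05 for ARB versus ACEI. On the later run day alone it was 0.03 for RAS blockade and 0.01 for ARB versus control. The median hid probe sets that lay on opposite sides of 0, also within 1 gene, so each gene is given below by probe set.

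**Figure D1:**
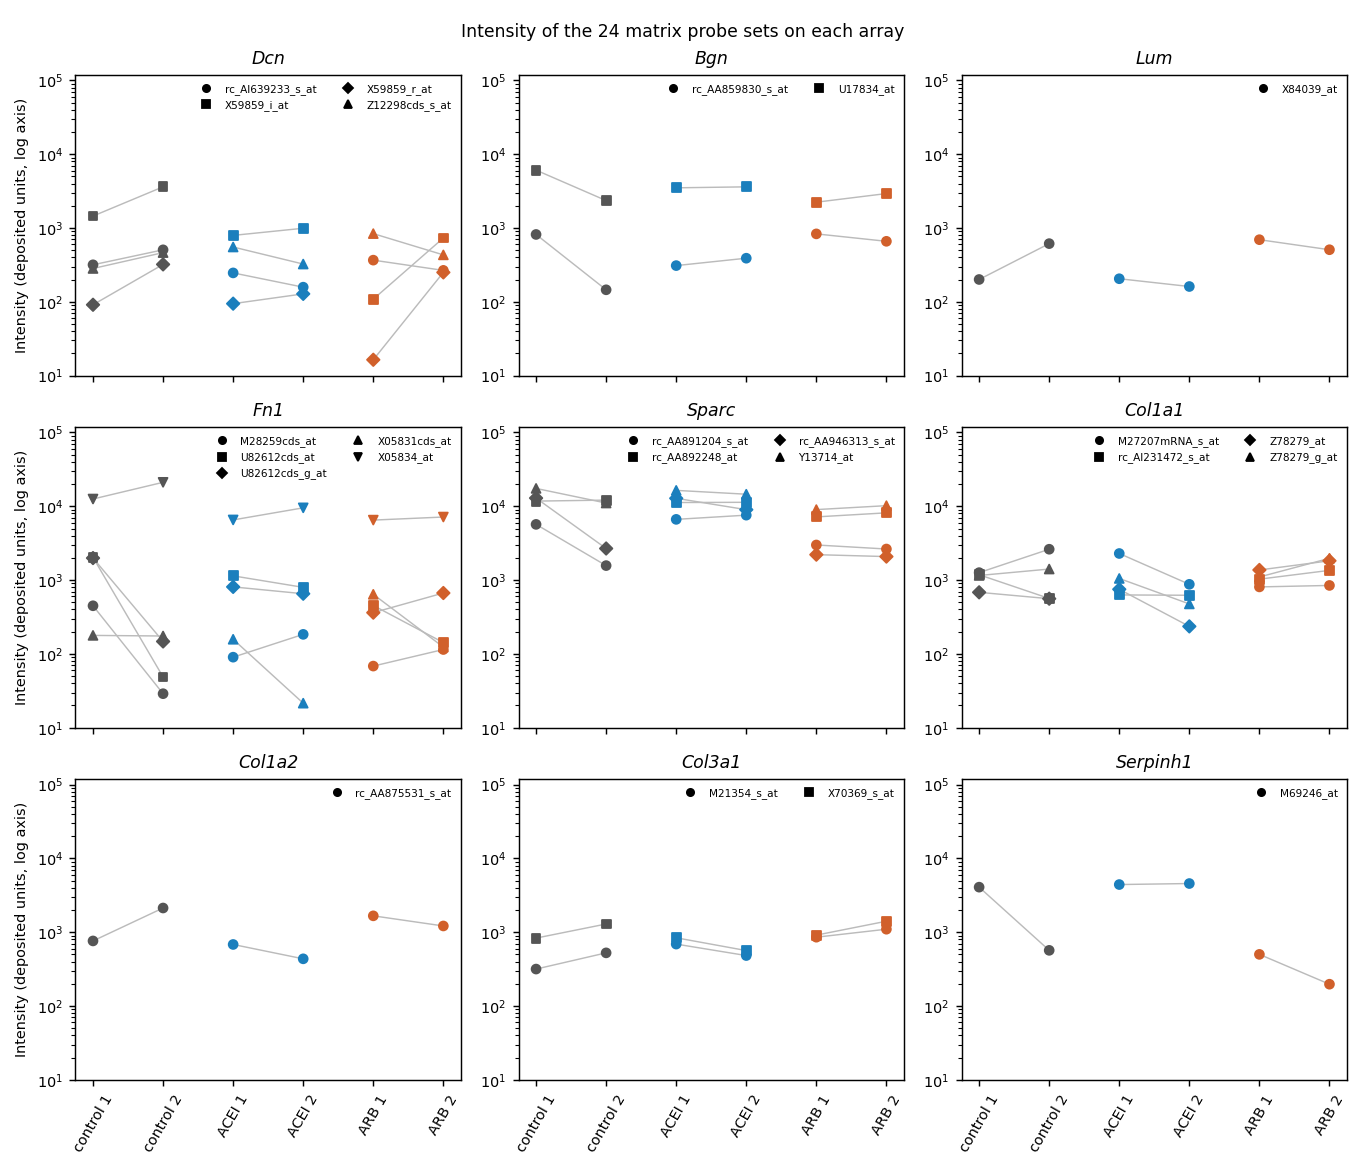
Intensity of each of the 24 probe sets (deposited units, log axis) on the 6 arrays, with 1 panel per gene and 1 symbol per probe set; thin lines join the arrays of a group. The Serpinh1 probe set lay at 4421 and 4563 on the ACEI arrays and at 500.6 and 197.4 on the ARB arrays, while control 1 and control 2 were at 4075 and 567.6.

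Decorin is a proteoglycan with a chondroitin or dermatan sulfate chain that binds type I collagen and also TGF-beta. Its brightest probe set, X59859_i_at, was lower on all 4 treated arrays than on both controls, and the other 3 did not share that pattern. X59859_i_at had an intensity of 1451 and 3614 on control 1 and control 2, of 793.9 and 992.1 on the ACEI arrays, and of 108.5 and 732.5 on the ARB arrays. The groups followed in the order control, ACEI, ARB with no overlap between neighbours, although the ARB arrays differed from each other by 2.05 on the log2 scale. Its difference was -1.93 ± 0.63 (SE of the model) for RAS blockade, 3.80-fold lower with n = 2 control and 4 treated arrays (adjusted p = 0.863 in limma), -1.29 ± 0.73 for ACEI (adjusted p = 0.992) and -2.56 ± 0.73 for ARB versus control (adjusted p = 0.205). Within the first run day ACEI minus control was -0.80, and within the later day ACEI minus control was -1.78 and ARB minus control -3.20. The ARB difference was -1.54 without ARB 1, whose value of 108.5 lay close to the foreign-transcript median of that array, and -3.59 without ARB 2. The RAS blockade difference was -2.56 without control 1 and -1.29 without control 2.

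X59859_r_at, designed to the same source sequence, was at 91.2 and 321.3 on the controls, 94.4 and 128.1 on ACEI and 16.4 and 250.4 on ARB. Like X59859_i_at it was higher on control 2 than on control 1 and lowest on ARB 1, but the groups overlapped and its RAS blockade difference was -0.48 ± 0.57, below the filter and so without an adjusted p. Its ARB 1 value of 16.4 lay below the foreign-transcript median of that array, 91.4. The suffixes mark that X59859_i_at holds fewer probes than a full set and that X59859_r_at was picked with some of the design rules dropped.

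The remaining Dcn probe sets came from other source sequences. rc_AI639233_s_at was at 317.4 and 506.2 on the controls, 246.4 and 157.9 on ACEI and 366.9 and 266.5 on ARB. Both ACEI arrays lay below both controls (-0.77 ± 0.47, adjusted p = 0.992 in limma), while the ARB arrays overlapped them (-0.29 ± 0.47). Z12298cds_s_at was at 282.7 and 463.9 on the controls, 552.5 and 324.7 on ACEI and 839.1 and 432.2 on ARB. Its groups overlapped throughout, and its differences were of the opposite sign, 0.40 ± 0.45 for RAS blockade and 0.62 ± 0.52 for ARB. The ARB value was 0.06 after quantile and 0.13 after cyclic loess normalization. The 4 probe sets thus spanned 2.33 log2 units in the RAS blockade comparison, from -1.93 to 0.40, and 3.18 in the ARB comparison. Among the 205 genes with 3 or more tested probe sets, the span of Dcn over its 3 tested ones ranked as number 5 from the widest for RAS blockade, where the median span was 0.91. It ranked as number 58 for ACEI, with a span of 1.47 against a median of 1.07.

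Genes outside the matrix list were ranked by how closely their log2 values, each centred on its own mean, followed those of X59859_i_at over the 6 arrays. The nearest of 3177 were Ripk3, a kinase of necroptosis, with a root mean square difference of 0.44, the histone H4 gene Hist4h4 with 0.44, and Stx12, an endosomal syntaxin, with 0.54. All 3 shared its high value on control 2 and its low value on ARB 1: Ripk3 had 1029 and 58.3 on these arrays. The ARB 1 values of Ripk3 and of Hist4h4 (39.5) lay below the foreign-transcript median of that array, 91.4, and that of Stx12 (293.6) lay above it. The other Dcn probe sets lay farther off than these 3 genes, X59859_r_at at 0.85, rc_AI639233_s_at at 1.23 and Z12298cds_s_at at 1.58. Set among the 3177 genes they would rank as number 76, 910 and 2130, so X59859_r_at was nearer than most genes.

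Biglycan, the closest relative of decorin, had 2 probe sets, and in each the controls differed from each other by more than any of the group differences. U17834_at was at 6078 and 2354 on control 1 and control 2, 3503 and 3610 on ACEI and 2236 and 2928 on ARB. The ACEI arrays lay between the controls and 1 ARB array lay below them, and the difference was -0.32 ± 0.48 for RAS blockade, -0.99 without control 2 and 0.35 without control 1. rc_AA859830_s_at was at 817.4 and 145.5 on the controls, 309.5 and 389.7 on ACEI and 832.4 and 660.3 on ARB. ACEI minus control was -0.08 ± 0.65, made of -1.18 on the first run day and 1.03 on the later day. For ARB versus ACEI the probe sets went apart, with 0.93 ± 0.65 for rc_AA859830_s_at and -0.46 ± 0.55 for U17834_at, each with no overlap between the 2 groups.

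Lumican, a keratan sulfate proteoglycan of collagen fibrils, had 1 probe set, at 200.7 and 614.2 on the controls, 205.4 and 161.2 on ACEI and 694.4 and 507.7 on ARB. The drug groups lay apart and each overlapped the controls. ARB minus ACEI was 1.33 ± 0.54 (2.51-fold, adjusted p = 0.201 in limma), 0.75 after quantile and 0.75 after cyclic loess normalization, and 1.45 within the later run day. Against the controls the differences were -0.73 ± 0.54 for ACEI and 0.60 ± 0.54 for ARB, and the latter was 0.03 after quantile normalization.

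Type I collagen is built from the chains of Col1a1 and Col1a2 and type III from Col3a1 alone. Their 7 probe sets were lower with ACEI than with ARB in all but 1 case, without passing the adjusted test. Of the 7, 6 were higher on both ARB arrays than on both ACEI arrays and 1 was lower on both, where 37.1% and 25.3% of all tested probe sets did so. The same 6 were above 0 after quantile and after cyclic loess normalization. The differences ran from -0.73 to 1.68, with a median of 0.83.

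Col1a2 was at 761.3 and 2127 on the controls, 681.7 and 435.8 on ACEI and 1666 and 1214 on ARB. Both ACEI arrays lay below both controls (-1.11 ± 0.57, adjusted p = 0.992 in limma), with -0.14 between the arrays of the first run day and -2.08 between those of the later day, and -0.42 without control 2. The ARB arrays lay between the controls (0.14 ± 0.57), and ARB minus ACEI was 1.25 ± 0.57 (2.38-fold, adjusted p = 0.240).

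The 4 Col1a1 probe sets differed from each other. Z78279_at was at 682.8 and 559.8 on the controls, 750.7 and 236 on ACEI and 1371 and 1827 on ARB, so that ARB lay above both other groups: 1.24 ± 0.56 versus control (adjusted p = 0.295 in limma) and 1.68 ± 0.56 versus ACEI (3.20-fold, adjusted p = 0.149). Z78279_g_at, from the same source sequence, was at 1155 and 1411, 1052 and 475.3, and 1102 and 1973 on control, ACEI and ARB, with 0.20 ± 0.54 for ARB versus control. rc_AI231472_s_at was at 1182 and 563.9, 629.6 and 623, and 1030 and 1355 in the same order, and its ARB versus ACEI difference was 0.83 ± 0.50. M27207mRNA_s_at was the exception: 1262 and 2619 on the controls, 2293 and 877 on ACEI and 808.3 and 846.4 on ARB, where both ARB arrays lay below all others. Its difference was -1.06 ± 0.59 for ARB versus control (adjusted p = 0.374) and -0.73 ± 0.59 versus ACEI, which was -0.08 without ACEI 1. The span of the 4 in the ARB versus control comparison was 2.30, number 20 from the widest among the 205 genes, whose median was 1.23, while with ACEI it was 0.43 and number 182.

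Col3a1 had 2 probe sets. M21354_s_at was at 316.5 and 524.8 on the controls, 689.7 and 482.5 on ACEI and 855.3 and 1097 on ARB. X70369_s_at was at 831.8 and 1291, 839.8 and 563.6, and 912.5 and 1408 in the same order. ARB lay above ACEI with no overlap in both, by 0.67 ± 0.48 and 0.65 ± 0.49. Against the controls they parted, since M21354_s_at was higher with ARB (1.08 ± 0.48, adjusted p = 0.289 in limma) while the groups overlapped in X70369_s_at (0.12 ± 0.49).

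**Figure D2:**
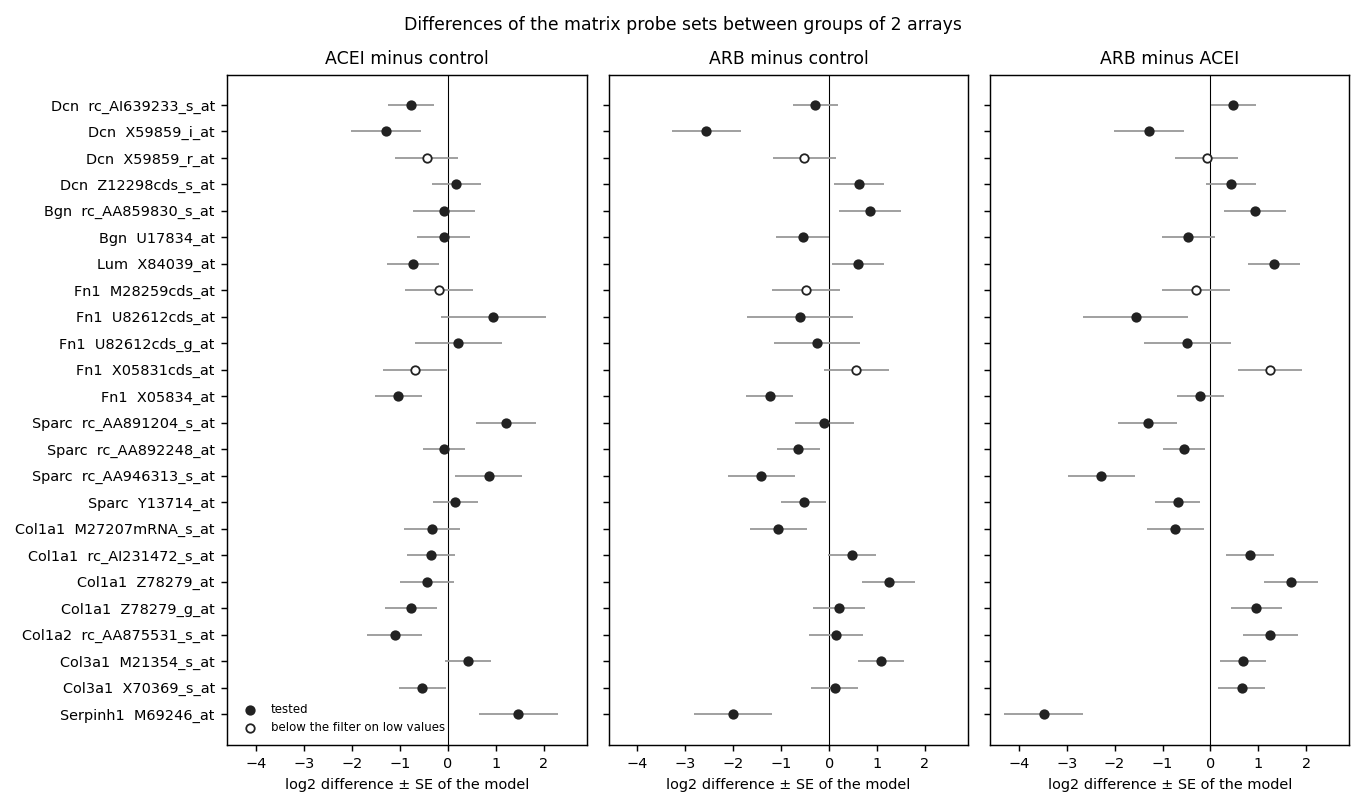
Log2 difference with the SE of the model for each of the 24 probe sets in ACEI minus control, ARB minus control and ARB minus ACEI, 2 arrays per group; open points lay below the filter on low values. In ARB minus ACEI 6 of the 7 collagen probe sets lie right of 0, and all 4 of Sparc and the 1 of Serpinh1 lie left of it.

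Fibronectin binds integrins, collagen and fibrin, and its plasma form comes from the liver while cells of the vessel wall make the cellular form. Its brightest probe set, X05834_at, was at 12546 and 21121 on the controls, 6535 and 9527 on ACEI and 6500 and 7151 on ARB. All 4 treated arrays lay below both controls, and the drug groups overlapped each other. The difference was -1.14 ± 0.42 for RAS blockade (2.20-fold lower, adjusted p = 0.863 in limma), -1.04 ± 0.49 for ACEI and -1.24 ± 0.49 for ARB versus control (adjusted p = 0.262). For RAS blockade it was below 0 under each of 15 other settings, from -1.51 to -0.77. Among these the filters and the replicate block cannot change a difference. The difference was -0.93 for ACEI on the first run day, and -1.14 for ACEI and -1.62 for ARB on the later day. After quantile normalization the RAS blockade value was -0.81.

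The other Fn1 probe sets did not share this. U82612cds_at was at 2031 on control 1 and 48.7 on control 2, 1141 and 797.6 on ACEI and 453.3 and 142.4 on ARB. U82612cds_g_at, from the same source sequence, was at 1989 and 147.5, 809 and 653.6, and 362.2 and 668.3. On control 2 both were far below control 1, by -3.93 and -3.13 on the log2 scale, whereas X05834_at was higher there by 0.75. Their RAS blockade differences were 0.17 ± 0.95 and -0.02 ± 0.78; without control 2 they were -1.80 and -1.59, and without control 1 2.14 and 1.54. For ACEI versus control U82612cds_at was at 2.91 without control 1, a fit in which control 2 stands alone and is assumed to vary like the other groups. M28259cds_at had 448.9 and 28.9 on the controls and 68.4 to 184 on the treated arrays, and X05831cds_at had 178.1 and 174.8 on the controls and 21.5 to 641.6 on the treated arrays; both lay below the filter. Over the 3 tested Fn1 probe sets the span was 1.31 for RAS blockade and 1.98 for ACEI, number 41 and number 19 of the 205 genes.

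Sparc, also called osteonectin, is a secreted glycoprotein that binds collagen and calcium. Its 4 probe sets were all lower on both ARB arrays than on both ACEI arrays, as 25.3% of all tested probe sets were, and differed in size. rc_AA946313_s_at was at 12916 and 2680 on control 1 and control 2, 12821 and 8999 on ACEI and 2212 and 2083 on ARB. Control 2 stood next to the ARB arrays and control 1 next to the ACEI arrays. ARB minus ACEI was -2.28 ± 0.70 (4.84-fold lower, adjusted p = 0.143 in limma). With only the drug groups in the fit the same difference had an adjusted p of 0.0242 in limma. In that fit 406 of 5244 probe sets had an adjusted p under 0.05. With control 1 or control 2 left out the difference stayed at -2.28, which was fixed because it holds no control array. ARB minus control was -1.42 ± 0.70, or -2.54 without control 2 and -0.31 without control 1.

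rc_AA891204_s_at showed the same arrangement at 5687 and 1572 on the controls, 6650 and 7581 on ACEI and 2991 and 2637 on ARB. Its ARB minus ACEI difference was -1.31 ± 0.62 (adjusted p = 0.250 in limma). ACEI minus control was 1.21 ± 0.62, which was 2.11 when control 1 was left out and 0.32 when control 2 was. Y13714_at was at 17458 and 11065 on the controls, 16423 and 14573 on ACEI and 9019 and 10196 on ARB, and rc_AA892248_at at 11754 and 12121, 11245 and 11322, and 7182 and 8149. In these brighter probe sets the controls were closer together, and ARB minus ACEI was -0.68 ± 0.47 and -0.56 ± 0.44. After quantile normalization these were -0.45 and -0.21. rc_AA892248_at was also lower on all 4 treated arrays than on both controls, by only -0.36 ± 0.38, and -0.07 after cyclic loess normalization.

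Serpinh1 had the largest difference of the 24 probe sets between the drugs. It was at 4075 and 567.6 on control 1 and control 2, 4421 and 4563 on ACEI, and 500.6 and 197.4 on ARB. Both ACEI arrays lay just above control 1, both ARB arrays lay below control 2, and the controls spanned the range between them. ARB minus ACEI was -3.48 ± 0.82 (11.1-fold lower, n = 2 and 2, adjusted p = 0.128 in limma), -3.50 within the later run day and -3.79 after quantile normalization. With only the drug groups in the fit the same difference had an adjusted p of 0.0172 in limma, and 406 of 5244 probe sets had one under 0.05. The difference holds no control array, so leaving out control 1 or control 2 could not change it. ACEI minus control was 1.47 ± 0.82 and ARB minus control -2.01 ± 0.82 (adjusted p = 0.992 and 0.273). These rested on which control was kept: ACEI was at 0.14 and ARB at -3.34 without control 2, and at 2.80 and -0.67 without control 1. The RAS blockade difference of -0.27 ± 0.71 was the mean of values of opposite sign.

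Promoter sequence is shown for the member with the largest difference between the drugs, Serpinh1, for Sparc, which was lower on the same arrays, and for Col1a2, which was higher on the ARB than on the ACEI arrays. The sequences are RefSeq windows of build GRCr8 that run from 250 bases before to 50 bases after the annotated start of the gene, chr1:163062927-163063226 on the minus strand, chr10:40038767-40039066 on the minus strand and chr4:33518307-33518606 on the plus strand. The table held windows for 4 of the 9 genes, the fourth being Lum. Capitals mark matches, on either strand, to GAANNTTC and TTCNNGAA (arrangements of the units of a heat shock element, each its own reverse complement), TATAAA and CCAAT.
Serpinh1: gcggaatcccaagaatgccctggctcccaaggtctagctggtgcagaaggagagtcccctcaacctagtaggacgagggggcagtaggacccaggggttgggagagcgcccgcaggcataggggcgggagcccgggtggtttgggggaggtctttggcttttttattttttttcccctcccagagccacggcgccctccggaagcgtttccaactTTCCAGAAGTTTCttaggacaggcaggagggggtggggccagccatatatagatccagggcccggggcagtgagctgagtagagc
Sparc: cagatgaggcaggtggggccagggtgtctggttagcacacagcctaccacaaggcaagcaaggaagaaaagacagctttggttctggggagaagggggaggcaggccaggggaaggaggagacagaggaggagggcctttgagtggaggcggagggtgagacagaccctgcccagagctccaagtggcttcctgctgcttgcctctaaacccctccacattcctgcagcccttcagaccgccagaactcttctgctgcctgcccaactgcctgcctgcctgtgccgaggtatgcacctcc
Col1a2: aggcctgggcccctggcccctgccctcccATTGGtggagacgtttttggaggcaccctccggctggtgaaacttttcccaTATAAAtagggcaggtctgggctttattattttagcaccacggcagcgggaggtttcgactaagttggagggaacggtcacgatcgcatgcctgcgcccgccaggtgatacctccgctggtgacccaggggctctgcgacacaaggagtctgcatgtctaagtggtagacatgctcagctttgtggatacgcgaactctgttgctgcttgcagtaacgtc
In Serpinh1, which is known as a heat shock gene, TTCNNGAA lay at positions -35 to -28 and GAANNTTC at -30 to -23 from the start, so that they overlapped and formed 3 alternating units. Among 33469 windows of the same length 8.77% held TTCNNGAA, 8.59% held GAANNTTC and 0.798% held 3 alternating units at that spacing. Col1a2 held TATAAA at -170 to -165 and CCAAT, on the minus strand, at -221 to -217, which 14.2% and 37.5% of windows held. The Sparc window held none of the 4 motifs, and Lum held CCAAT at -130 to -126 on the minus strand. A match describes letters and not a bound site.

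The difference within the control pair and the difference between the drugs come from different arrays and could be set side by side. Over the 24 probe sets, control 2 minus control 1 and ARB minus ACEI had a Pearson correlation of 0.53, and over all 5244 tested probe sets of 0.41, with 0.56 and 0.44 after quantile normalization. Probe sets of a gene share a transcript, and all points share the arrays. Control 1 and ACEI 1 were run on the first day, and control 2, ACEI 2 and both ARB arrays on the later day. Both differences thus hold part of the same contrast in run day and chip lot, so the correlations are descriptions. Of the 24, 13 (54.2%) differed more than 2-fold between the controls, 8 lower and 5 higher on control 2, against 34.5% of all tested probe sets, and the median absolute difference was 1.09 against 0.68. Serpinh1 (-2.66), Sparc rc_AA946313_s_at (-2.23) and Fn1 U82612cds_at (-3.93) were low on control 2 and lower with ARB than ACEI. Lum (1.28) and Col1a2 (1.38) were high on control 2 and higher with ARB than ACEI. Both differences were below 0 for 8 of the 24 probe sets and above 0 for 7, and 9 had opposite signs, as did 2151 of the 5244 tested probe sets. Among those 9 were Dcn X59859_i_at (1.27 within the controls and -1.28 between the drugs), Bgn rc_AA859830_s_at (-1.95 and 0.93), Col1a1 rc_AI231472_s_at (-0.96 and 0.83) and Col1a1 M27207mRNA_s_at (1.00 and -0.73).

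**Figure D3:**
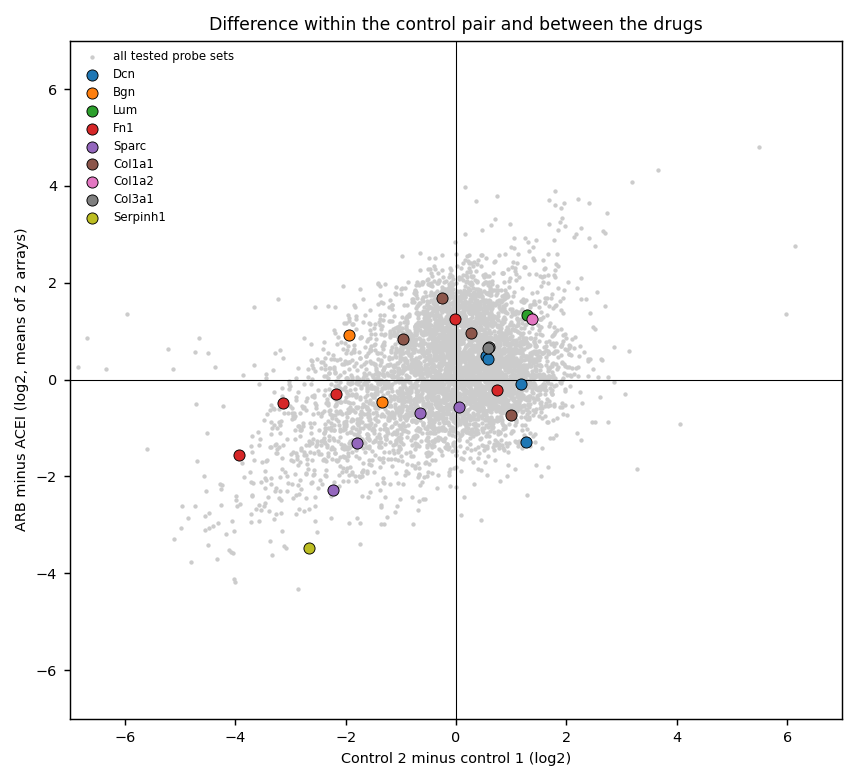
Log2 difference between control 2 and control 1 (x axis) against ARB minus ACEI (y axis, means of 2 arrays) for all 5244 tested probe sets in grey and the 24 matrix probe sets in colour. Serpinh1 lies at -2.66 and -3.48, and Lum and Col1a2 lie close together at the upper right, at 1.28 and 1.38 on the x axis.

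Markers of other cell types differed between the groups as well, and in bulk RNA fewer cells of a type and less RNA per cell cannot be told apart. The median over all genes tested was 0.19 for ARB versus ACEI and 0.10 for RAS blockade versus control. Of 10 tested endothelial markers 9 were lower with ARB than ACEI (median -1.15), with a summed intensity of 35100 and 44900 on ARB, 50480 and 54600 on ACEI and 55890 and 71900 on the controls. Slc2a1, the glucose transporter of the blood-brain barrier, made up most of that sum. The other 9 markers, summed without it after the values were seen, were at 22200 on control 1, 5132 on control 2, 16070 and 19950 on ACEI and 7639 and 7422 on ARB, and 6 of the 10 were lowest on control 2. For ARB versus ACEI Pecam1 was at -2.97 and Vwf at 0.24, and Cldn5, Tek, Tie1 and Cdh5 had no named probe set. Of 6 tested astrocyte markers 4 were lower with ARB than ACEI (median -1.27), with sums of 12630 and 13560 on ARB, 37930 and 49320 on ACEI and 25410 and 28470 on the controls. Sums of 10 mural cell markers were 32550 and 39010 on the controls and 17480 to 21870 on the 4 treated arrays. Acta2 was the brightest of them, and the other 9 were also summed after the values were seen. They were at 13040 and 15890 on the controls, 9432 and 10280 on ACEI and 10270 and 13100 on ARB, so that ARB 2 lay above control 1. Sums of 16 markers of perivascular and meningeal fibroblasts other than the genes described here were 51960 and 93990 on the controls, 65420 and 50170 on ACEI and 73930 and 72510 on ARB. Among them Mgp was at 38058 on control 2. Of 15 tested fibroblast markers 11 were above 0 for ARB versus ACEI (median 0.44, and 0.40 after quantile normalization). For RAS blockade versus control 9 of the 15 were above 0 (median 0.05). Neuron markers were above 0 for RAS blockade versus control in 8 of 8 tested genes (median 1.11, and 7 of 8 with 0.78 after quantile normalization), with sums over 10 markers of 2503 and 4581 on the controls and 6180 to 8575 on the treated arrays. Macrophage and microglia markers were below 0 in that comparison in 7 of 7 (median -0.79), with sums over 9 markers of 35340 and 31920 on the controls, 17200 and 37110 on ACEI and 11470 and 12550 on ARB. No marker of these 6 lists lay below the foreign-transcript median on all arrays, but some did on single arrays. Rab3a was at 13.3 on control 2, where that median was 25.2, and Aqp4 at 31.0 on ARB 1, where it was 91.4. The part of these cell types in the matrix results was not tested.

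Other matrix genes were read from 5 lists at 1 probe set per gene. For ARB versus ACEI 6 of 6 tested other collagens were above 0 (median 1.43, and 0.87 after quantile normalization, beside 0.19 over all genes tested). Of these 4 had an unadjusted p under 0.05 in limma, as 15.6% of all tested probe sets did in that direction, and none passed after adjustment. The filter took the mean over all 6 arrays, so dim genes could pass it through high ARB values. Col4a3 and Col12a1, both among the 4, were at 94.6 to 311.2 and 118 to 299.3 outside the ARB arrays. On the ARB arrays they were at 472.4 to 667.9. The counts for ARB versus ACEI are thus descriptions. Of 15 genes of collagen folding and cross-linking 12 were below 0 in that comparison (median -0.66), 1 at an unadjusted p under 0.05 in each direction, beside 15.6% higher and 6.71% lower in the table. Among them the prolyl isomerase Ppib, which acts on procollagen beside Serpinh1, was at 5455 and 1514 on the controls, 5995 and 8244 on ACEI and 2665 and 2536 on ARB, and was named after its values were seen. For RAS blockade versus control none of the 5 lists held a member past the adjusted test in limma; of the 52 genes tested 1 was higher and 2 were lower at an unadjusted p under 0.05, beside 3.05% and 2.02% of all tested probe sets. The median was 0.22 for other collagens and -0.08 after quantile normalization, -0.22 for folding and cross-linking, -0.05 for other proteoglycans, -0.00 for other glycoproteins and -0.43 for receptors, beside 0.10 over all genes tested.

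The list members with the lowest p for RAS blockade were as follows. In the collagen list these were Col10a1 at 0.64 ± 0.45, Col15a1 at 0.59 ± 0.51 and Col5a2, a chain of the type V collagen that nucleates fibrils, at -0.34 ± 0.43. The values of Col10a1 and Col15a1 were means of drug groups that lay apart, at -0.62 and -0.14 with ACEI and 1.89 and 1.31 with ARB. For folding they were the disulfide isomerases Pdia4 at 0.84 ± 0.46 and Pdia3 at 1.21 ± 0.77 and the lysyl hydroxylase Plod2 at -0.67 ± 0.43. Among proteoglycans they were glypican-1, Gpc1, at 1.07 ± 0.38, and the brain proteoglycans Bcan at 1.07 ± 0.51 and Cspg5 at 0.87 ± 0.46. Gpc1 was higher on all 4 treated arrays (918 to 2345) than on the controls (570.2 and 734.3), and its adjusted p was 0.863 in limma. Among glycoproteins osteopontin, Spp1, was at -3.73 ± 0.42, matrix Gla protein, Mgp, an inhibitor of vessel calcification, at -1.46 ± 0.53 and tenascin-C, Tnc, at 1.05 ± 0.59, the last being a mean of -0.01 with ACEI and 2.11 with ARB. Mgp was at 11240 and 38058 on the controls and 5795 to 8888 on the treated arrays (adjusted p = 0.863). For receptors they were the integrin subunits Itgb1 at -0.72 ± 0.42, Itga1 at -0.60 ± 0.45 and Itga7 at -0.43 ± 0.48.

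**Figure D4:**
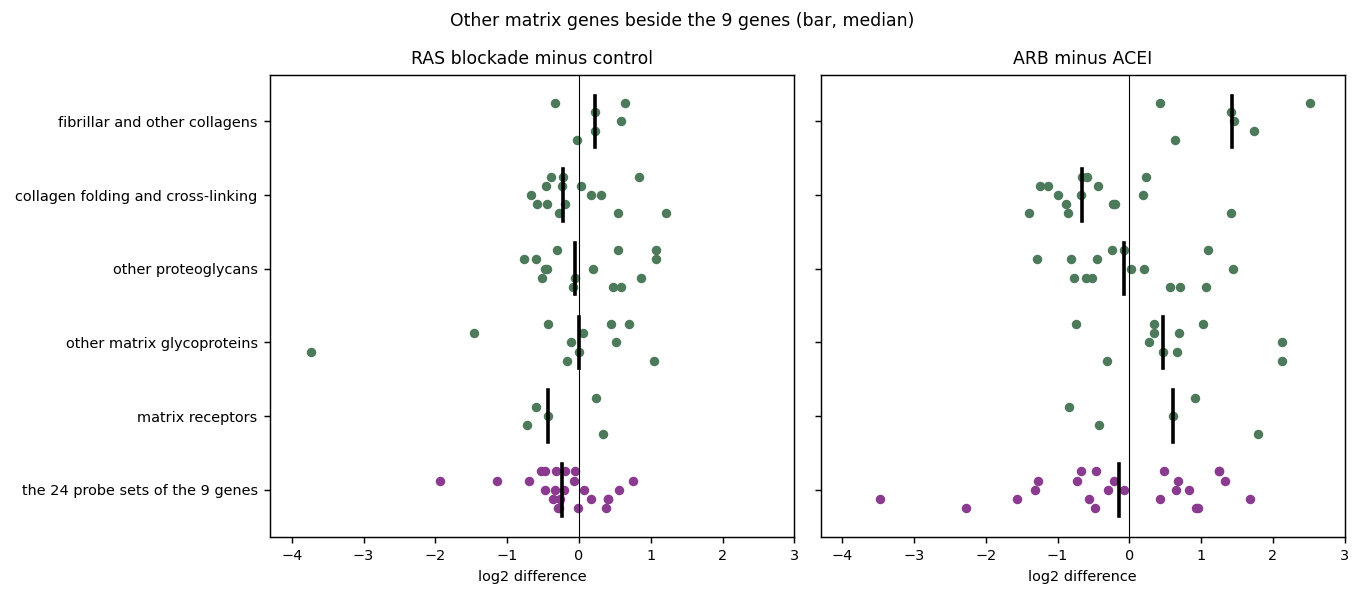
Log2 differences of the other matrix genes by list (green, 1 probe set per gene, tested genes only) and of the 24 probe sets of the 9 genes (purple), for RAS blockade minus control and ARB minus ACEI; bars are medians. In ARB minus ACEI the other collagens have a median of 1.43, the folding genes of -0.66 and the 24 probe sets of -0.14.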

How the data were processed

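The deposited value table holds 1 intensity per probe set and array on a linear scale. The labels and files name no software, background correction or scaling for it. The 2% trimmed mean lay between 997.7 and 1002.2 on every array. Chip lot, fluidics protocol and run day were read from the run settings, per the file headers. Array titles without a number were read as replicate 1. Probe sets were named through the platform annotation (7018 with 1 symbol, 308 with several, 1473 with none), and 59 control probe sets were left out.

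Values were taken as log2(intensity + 90), the offset being the median intensity divided by 4, which makes fold changes of dim probe sets smaller than they were measured. The lowest 40% by mean were left out, and all 3 groups were fitted together in limma 3.58.1 (R 4.3.3; 3 residual and 5.49 prior degrees of freedom) with Benjamini-Hochberg adjustment over 5244 probe sets. The fit was tested on simulated data. Two-sided p-values were used.

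The genes and lists were chosen with earlier results of these data known. Named besides them were the 3 members of each matrix list with the lowest p for RAS blockade, from the brightest probe set per gene, and the 3 genes most like the brightest Dcn probe set. The alternatives were other offsets, filters and normalizations, blocks for run day and replicate number, the compared groups alone, 1 probe set per gene and leaving out each array.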

Additional observations from a re-analysis of the deposited data

Results flagged for a closer look

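Serpinh1 (M69246_at) stood out because both ACEI arrays lay above both controls and both ARB arrays below them. The difference was tested as ARB versus ACEI, which gave -3.48 ± 0.82 on the log2 scale with an adjusted p of 0.128 in limma. That value comes from the same arrays that drew attention to the gene, so it restates the observation and is no independent test of it.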

How the results depend on the processing

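No probe set had an adjusted p under 0.05 in limma in any of the 4 comparisons, while 266, 136, 905 and 1171 had an unadjusted p under 0.05 for RAS blockade, ACEI and ARB versus control and ARB versus ACEI. In the same order the called counts were 3, 3, 4 and 4 with the offset equal to the median and 3, 2, 4 and 1 with a replicate block. Same-numbered arrays did not deviate together (correlations 0.045, -0.015 and -0.004), so the numbers were not taken as pairs. RAS blockade gave 1 call after quantile and 1 after cyclic loess normalization, and ARB versus ACEI gave 406 with only the groups compared. Leaving out 1 array gave 0 to 62, 0 to 256, 0 to 91 and 0 to 334 calls. Without control 1 these were 62, 256, 16 and 334, and without control 2 they were 2, 0, 91 and 316.

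The median over the 24 probe sets ran from -0.34 to 0.13, -0.46 to -0.10, -0.34 to 0.01 and -0.38 to 0.05 with 1 array left out; without control 1 it was 0.13, -0.10, 0.01 and -0.14. With 1 probe set per gene it was -0.53 for ACEI, -0.55 for ARB and -0.46 for ARB versus ACEI. The offset of 1 gave -0.34 for ARB versus ACEI, and the run day block gave 0.02 for ARB and 0.23 for ARB versus ACEI. The later run day alone, chosen after seeing the data, gave 0.03 for RAS blockade and 0.01 for ARB. The cause was not tested. The span of the Dcn probe sets for RAS blockade was 1.61 to 3.05 with 1 array left out. Of the 24 probe sets 8, 10, 11 and 18 had the same sign under every alternative, and 14, 11, 10 and 0 had opposite signs without control 1 and without control 2. Leaving out an array outside a comparison cannot change its difference, so the 0 for ARB versus ACEI was fixed. The filters, the replicate block and a fit of the compared groups alone cannot change a difference either. The counts of same signs thus rest on fewer settings than were tried. With 2 arrays per group, their number limits the precision of every value.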

Other observations

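Of 3 other matrix genes named after their values were seen, Lama1 and Col4a3 were brighter on both ARB arrays than on the other 4 arrays. Of all tested probe sets 33.4% were higher on both ARB arrays than on both controls, and 37.1% than on both ACEI arrays. The median intensity of the ARB arrays was also higher, 485.7 and 493.8 against 244.9 to 353.4 on the other 4. Col4a3 was dim outside the ARB arrays and may have passed the filter on low values through them. Lama1, a laminin chain of basement membranes, was at 275.9 and 356.6 on the controls, 215.7 and 162.8 on ACEI and 878.9 and 1437 on ARB, and its ARB versus ACEI difference was 2.13 ± 0.47 (adjusted p = 0.126 in limma). Col4a3, a chain of basement membrane collagen, was at 311.2 and 184.8 on the controls, 154.3 and 94.6 on ACEI and 594.2 and 630.6 on ARB, a difference of 1.73 ± 0.46 (adjusted p = 0.133 in limma). The lysyl oxidase Lox, which cross-links collagen and elastin, was at 268.6 and 666.4 on the controls, 262.4 and 105.1 on ACEI and 736.4 and 498.4 on ARB, so that its ARB arrays overlapped the controls and lay above both ACEI arrays (1.41 ± 0.56, adjusted p = 0.191 in limma).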
